A study of Mus musculus with 6 samples.

Results

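The smooth muscle contractile genes are 10 genes of the contractile apparatus of vascular smooth muscle: Acta2, Myh11, Tagln, Cnn1, Tpm2, Tpm1, Myl9, Lmod1, Des and Mylk. They were taken as all probe sets whose platform annotation gives a single gene symbol on that list, which gave 22 probe sets for the 10 genes, of 45037 probe sets and 18193 genes with a single symbol. A probe set is a group of short oligonucleotides read together as 1 value, and each gene is described by its brightest one, with the others given where they differ. Knockout brains carried the Nestin-Cre transgene and floxed Pofut1 on both copies, NestinCre control brains carried the transgene and wild-type Pofut1, and Flox control brains carried floxed Pofut1 on both copies and no Cre. Total RNA of brain from C57/Bl6 mice aged 2 months was hybridised to 1 array per sample, with 2 arrays in each of the 3 groups. The Nestin promoter drives Cre in neural progenitors and so in neurons and glia that descend from them, and the labels do not say in which vascular cells Pofut1 was lost.

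Smooth muscle cells wrap arteries and arterioles, including those of the brain surface and those that dive into the tissue, and set vessel diameter. Actin thin filaments slide past myosin thick filaments once myosin light chain kinase has phosphorylated the regulatory light chain, and tropomyosin, calponin and related proteins sit along the thin filament. Transcription of this gene set is known to rest on serum response factor, which binds CArG boxes, and on its partner myocardin. Notch receptors of mural cells act through the DNA-binding protein Rbpj, and Acta2 is known as one of the genes they act on in smooth muscle. Pofut1 encodes the O-fucosyltransferase that modifies the EGF-like repeats of Notch receptors.

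The promoters of Acta2, Myl9 and Tpm1 are shown because they hold the motif matches found among the genes described here. They are the RefSeq windows of assembly GRCm38.p6, from 250 bases before the gene start to 50 after it, at chr19:34255324-34255623 on the minus strand, chr2:156775214-156775513 on the plus strand and chr9:67049164-67049463 on the minus strand. Capitals mark CArG boxes, CArG boxes with 1 C or G in the core of 6 bases, and TGGGAA, the core that Rbpj recognises, searched as TGGGAA and TTCCCA so that both strands were covered.
Acta2: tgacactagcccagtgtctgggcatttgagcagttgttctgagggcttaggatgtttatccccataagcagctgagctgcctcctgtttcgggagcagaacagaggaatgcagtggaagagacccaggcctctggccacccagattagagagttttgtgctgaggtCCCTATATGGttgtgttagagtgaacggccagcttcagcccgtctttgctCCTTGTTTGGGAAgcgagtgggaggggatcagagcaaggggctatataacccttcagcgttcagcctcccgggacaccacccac
Myl9: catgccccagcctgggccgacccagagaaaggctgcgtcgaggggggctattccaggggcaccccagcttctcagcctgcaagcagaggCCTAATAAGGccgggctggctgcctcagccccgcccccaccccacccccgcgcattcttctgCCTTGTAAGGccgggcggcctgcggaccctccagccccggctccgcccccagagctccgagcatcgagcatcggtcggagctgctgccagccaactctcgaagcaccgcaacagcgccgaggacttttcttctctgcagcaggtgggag
Tpm1: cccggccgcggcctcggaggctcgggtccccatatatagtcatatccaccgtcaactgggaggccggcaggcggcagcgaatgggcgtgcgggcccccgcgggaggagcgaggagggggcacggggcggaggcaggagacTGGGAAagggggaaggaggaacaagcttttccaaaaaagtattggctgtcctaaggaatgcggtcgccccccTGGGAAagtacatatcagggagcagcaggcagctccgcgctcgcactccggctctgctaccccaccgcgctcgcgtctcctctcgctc

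In the Acta2 window, CCCTATATGG began 84 bases and CCTTGTTTGG 34 bases before the gene start. Each of them has 1 C or G in its core, and the second overlaps a TGGGAA that begins at base -27. The Myl9 window holds the uninterrupted CArG box CCTAATAAGG at base -161 and CCTTGTAAGG, with 1 G in its core, at base -99. Tpm1 holds TGGGAA at bases -110 and -38 and no CArG box of either form. Of the 10 genes, 8 have a window in the table, and Myh11 and Tagln do not. Either form of the CArG box was in 2 of the 8 windows and TGGGAA or TTCCCA in 2, and those of Tpm2, Des, Lmod1, Cnn1 and Mylk held no match. An uninterrupted CArG box is in 1.63% of 32851 promoter windows, either form in 9.98%, and TGGGAA or TTCCCA in 25.6%. The matches describe letters in these windows and not bound sites.

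The 6 arrays had medians of 7.32 to 7.36 (log2), and any 2 of them had a Pearson correlation between 0.985 and 0.995. The brightest probe set of all 10 neuronal, all 8 astrocyte and all 7 measured oligodendrocyte markers lay above the median probe set (7.34, mean log2 over the 6 arrays). So did 14 of 17 endothelial and 11 of 13 meningeal fibroblast markers. Of the 18193 genes, 11469 outside the 10 contractile genes lay above it too, so this is weak support for the labelled tissue. Knockout replicate 1 and NestinCre control replicate 2 stood apart from the other 4 arrays in sex-linked transcripts, with Xist at 6.23 and 6.31 against 11.8 to 12.4. The Y-linked Eif2s3y was at 11.24 and 11.08 on these 2, against 5.38 to 5.52. These are levels of male samples on the 2 and of female samples on the other 4. Sex was therefore mixed within knockout and NestinCre control, and both Flox control arrays were female. Flox control replicates 1 and 2 carried the pituitary transcript Gh at 7.87 and 9.40, against 5.84 to 6.91 on the other arrays. Pofut1 itself stood at 70.8% of both controls in knockout (log2 difference -0.50, SE 0.08, limma adjusted p = 0.211).

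Knockout was compared with both control groups together, which asks how brains without Pofut1 in the Nestin lineage differ in these genes. The myosin heavy chain Myh11 and the actin Acta2 showed the widest differences of the 10 genes, at 55.1% and 56.0% of the control level. The tropomyosin Tpm2, the regulatory light chain Myl9 and the actin-binding transgelin (Tagln) followed at 68.6%, 71.4% and 73.8%, whereas the tropomyosin Tpm1 and the kinase gene Mylk stood at 105.3% and 101.2%. None of the 22 probe sets passed limma with Benjamini-Hochberg adjustment over all 45037 probe sets at 0.05, where 7 probe sets, or 0.0155%, passed. At an unadjusted p under 0.05, 9 of the 22 were lower and 1 was higher in knockout, against 5.08% lower and 6.04% higher of all probe sets. Differences were below 0 for 16 of the 22, against 52.5% of all probe sets, and the knockout pair was under every control array in 10 and over every one in 3, against 9.19% and 8.77%. The genes were chosen with earlier results of these data known, so these counts are descriptions. In RNA of bulk brain tissue, fewer smooth muscle cells and less of a transcript in each such cell cannot be told apart.

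**Figure D1:**
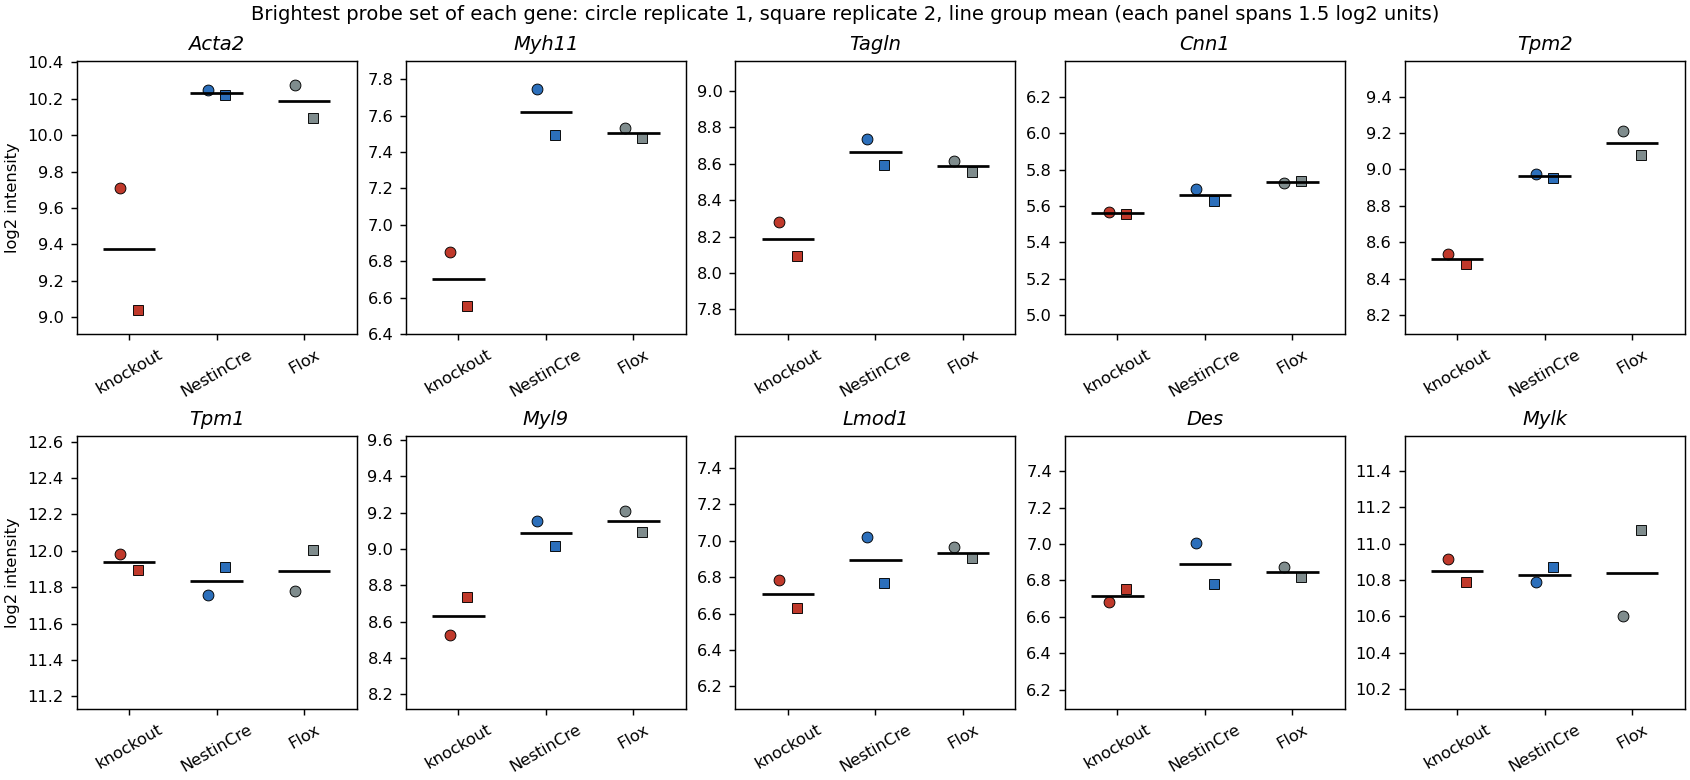
Log2 intensity of the brightest probe set of each of the 10 genes (vertical axis) in knockout, NestinCre control and Flox control arrays (horizontal axis), with a circle for replicate 1, a square for replicate 2 and a line at the group mean. Every panel spans the same number of log2 units. Both knockout arrays lie below all 4 control arrays for Acta2, Myh11, Tagln, Tpm2 and Myl9, and by less than 0.06 for Cnn1 and Des, while Tpm1, Lmod1 and Mylk overlap.

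Thin filament genes differed among themselves. Acta2, the actin of smooth muscle thin filaments, measured 9.71 and 9.04 on the log2 scale in knockout, against 10.25 and 10.22 in NestinCre control and 10.28 and 10.09 in Flox control. The knockout arrays were both below every control, and they lay 0.67 apart, while the 4 controls spanned 0.18. The log2 difference was -0.84 (SE 0.20), or 1.78-fold lower, with a limma adjusted p of 0.282. It was -0.50 without knockout replicate 2 and -1.17 without knockout replicate 1. The name of this probe set ends in _s_at, which in Affymetrix naming means that its probes may match several related transcripts. The muscle actin Acta1 differed by -0.11 (SE 0.11), the enteric smooth muscle actin Actg2 by -0.12 (SE 0.07) and the cardiac actin Actc1 by -0.02 (SE 0.05). The Actg2 and Actc1 probe sets were dim, with mean log2 levels of 5.66 and 5.49. Any part of related actins in the Acta2 value was not tested. The other Acta2 probe sets, with mean log2 levels of 5.67 and 5.55, differed by -0.05 and -0.04. Both are among the dim probe sets of the array.

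Tpm2, a tropomyosin that lies along thin filaments, measured 8.54 and 8.48 in knockout, against 8.97 and 8.95 in NestinCre control and 9.21 and 9.08 in Flox control. The knockout arrays lay 0.06 apart and 0.41 below the lowest control. Its log2 difference of -0.54 (SE 0.06) had the smallest adjusted p of the brightest probe sets, 0.126 in limma. Against both controls together, Tpm2 is the only one of the 10 genes with several probe sets all below 0 by more than 0.2. A second, equally bright one differed by -0.56 (SE 0.06), another by -0.33 (SE 0.08) and a dim one by -0.26 (SE 0.08). Against NestinCre control alone the last 2 differed by -0.21 (SE 0.09) and -0.03 (SE 0.09), and against Flox control by -0.46 (SE 0.09) and -0.49 (SE 0.09). For the dim one the knockout arrays overlapped NestinCre control. The one at -0.33 has a name ending in _x_at, which marks probes that can match unrelated transcripts, and it did not separate the arrays as widely, at 8.15 and 8.39 in knockout against 8.46 to 8.76 in the controls.

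The paralog Tpm1 is also expressed outside muscle. Its brightest probe set measured 11.98 and 11.89 in knockout, against 11.76 and 11.91 in NestinCre control and 11.78 and 12.002 in Flox control. The groups overlapped, and the log2 difference was 0.07 (SE 0.09, limma adjusted p = 0.845). Of the other Tpm1 probe sets, 2 differed by 0.14 (SE 0.14) and 0.14 (SE 0.06), and the dimmest, at a mean of 5.29, by -0.02.

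Lmod1, a leiomodin that nucleates actin filaments in smooth muscle, was dim. It measured 6.79 and 6.63 in knockout, against 7.02 and 6.77 in NestinCre control and 6.96 and 6.91 in Flox control. Knockout replicate 1 lay above NestinCre control replicate 2, and the log2 difference of -0.21 (SE 0.09, limma adjusted p = 0.515) was -0.13 without knockout replicate 2.

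Thick filament genes follow. Myh11, the smooth muscle myosin heavy chain and a gene largely restricted to smooth muscle, measured 6.85 and 6.55 in knockout, against 7.75 and 7.49 in NestinCre control and 7.53 and 7.48 in Flox control. Both knockout arrays lay at least 0.63 below every control, the widest gap of the 10 genes. The log2 difference was -0.86 (SE 0.12), or 1.82-fold lower, with a limma adjusted p of 0.176. With an intensity trend and robust fitting in limma's eBayes the adjusted p was 0.0401, the 1 setting among 15 alternatives for this gene in which it passed, and over all of them it ran up to 0.459. The mean of this probe set, 7.27, lay just under the median probe set, 7.34. A second and dimmer Myh11 probe set turned the other way, at 6.02 and 5.93 in knockout against 5.82 to 5.86 in the controls (log2 difference 0.14, SE 0.05, limma adjusted p = 0.441), so the probe sets of this gene disagree.

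Myl9, the regulatory light chain that the kinase phosphorylates, measured 8.53 and 8.74 in knockout, against 9.15 and 9.01 in NestinCre control and 9.21 and 9.09 in Flox control. The highest knockout array lay 0.28 below the lowest control, and the difference was -0.49 (SE 0.09, limma adjusted p = 0.224). Myl9 lies on chromosome 2, as Pofut1 does, with 70 protein-coding genes between them in GRCm38.p6. The knockout difference of Myl9 was -0.45 (SE 0.10) against NestinCre control and -0.52 (SE 0.10) against Flox control. Any part of sequence linked to Pofut1 in these values was not tested. The regulatory light chains of non-muscle cells gave values near 0, with Myl12a at 0.05 (SE 0.07) and Myl12b at -0.02 (SE 0.05), and the essential light chain Myl6 stood at 0.31 (SE 0.06).

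Mylk encodes the myosin light chain kinase that starts contraction. It measured 10.92 and 10.79 in knockout, against 10.79 and 10.87 in NestinCre control and 10.60 and 11.08 in Flox control. The Flox control arrays alone lay 0.47 apart, wider than any difference between group means, and the log2 difference was 0.02 (SE 0.14). The sign depended on the arrays: it was -0.10 without Flox control replicate 1. Dimmer Mylk probe sets differed by -0.11 (SE 0.13) and -0.21 (SE 0.09), the second at a limma adjusted p of 0.497. For that second one, at a mean of 6.47, both knockout arrays lay below every control, by 0.09.

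Among the actin-binding proteins, Tagln, which encodes transgelin (SM22), measured 8.28 and 8.10 in knockout, against 8.73 and 8.59 in NestinCre control and 8.62 and 8.56 in Flox control. Both knockout arrays were below all controls, with a difference of -0.44 (SE 0.08, limma adjusted p = 0.224). Cnn1 encodes calponin, which restrains myosin's ATPase activity. It measured 5.57 and 5.55 in knockout, against 5.70 and 5.63 in NestinCre control and 5.72 and 5.74 in Flox control, a dim signal on every array. Its difference of -0.14 (SE 0.05, limma adjusted p = 0.413) separated the groups by 0.06. The file gives no detection calls, so whether Cnn1 was above background is not known.

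Des encodes desmin, the intermediate filament protein of muscle, which pericytes also make. It measured 6.68 and 6.75 in knockout, against 7.004 and 6.78 in NestinCre control and 6.87 and 6.82 in Flox control. The groups were separated by 0.03, and the difference was -0.15 (SE 0.08, limma adjusted p = 0.568). It was -0.10 without NestinCre control replicate 1. The other Des probe set, at a mean of 5.55, stood at 0.07 (SE 0.04).

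**Figure D2:**
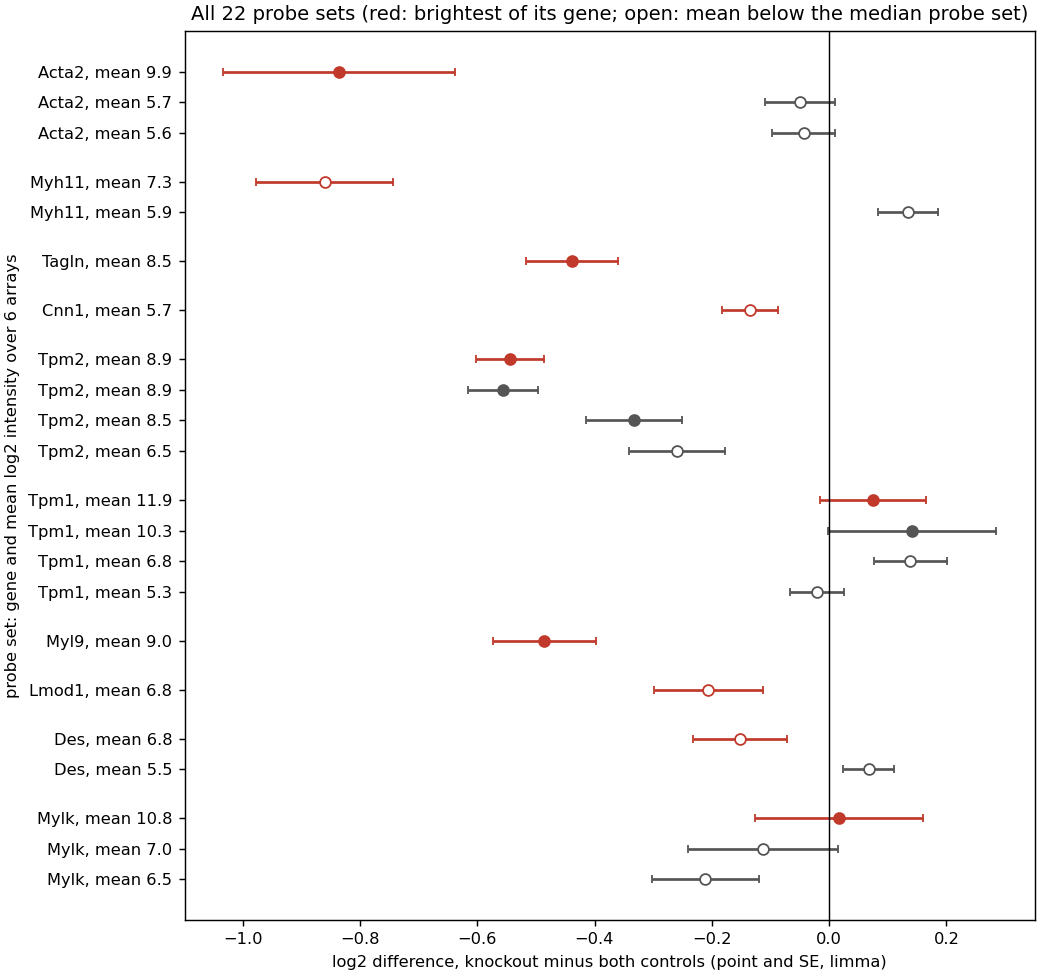
Log2 difference between knockout and both controls with its limma SE (horizontal axis) for all 22 probe sets, named by gene and mean log2 intensity (vertical axis). Red marks the brightest probe set of a gene and an open circle a mean below the median probe set. Points lie left of 0 for every Tpm2 probe set, while the dimmest probe sets of Acta2, Myh11 and Des sit near or right of 0. The brighter Myh11 probe set, also below the median probe set, is the furthest left at -0.86.

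Over the 10 brightest probe sets, 8 differences were below 0, and at an unadjusted p under 0.05 6 were lower and 0 higher, against 59.3%, 6.45% and 4.16% of the 18193 genes. Their median was -0.32, and that of all genes -0.02. Both knockout arrays were below all 4 controls for 7 of the 10, against 10.9% of genes. The 6 genes whose brightest probe set lay above the median probe set had a median of -0.46, with Tpm1 and Mylk the 2 above 0. Knockout replicate 2 was the lower of its pair for 8 of the 10 genes, with Myl9 and Des the exceptions. Replicate 2 was also the lower for 8 of 10 in NestinCre control and 7 of 10 in Flox control. The knockout pair spanned more than the 4 controls for 4 of the 10: Acta2, Myh11, Tagln and Myl9. The median of the 10 centred values was -0.17 and -0.22 on knockout replicates 1 and 2. On NestinCre control replicates 1 and 2 it was 0.18 and 0.04, and on Flox control replicates 1 and 2 it was 0.13 and 0.12. NestinCre control replicate 2 was therefore nearest to the knockout arrays among the controls, and it shares low Xist with knockout replicate 1. With the Xist level as a covariate the median was -0.32, and Acta2 stood at -0.91, Myh11 at -0.86 and Tpm2 at -0.55.

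Each control group was then compared with knockout on its own, since NestinCre control differs in the floxed copies and Flox control in Cre. These comparisons share the knockout arrays, so their values are set side by side and nothing is read from their likeness. Against NestinCre control the largest differences were Myh11 at -0.92 (SE 0.14) and Acta2 at -0.86 (SE 0.23), and against Flox control the same genes stood at -0.80 (SE 0.14) and -0.81 (SE 0.23). Tpm2 differed by -0.45 (SE 0.07) against NestinCre control and -0.64 (SE 0.07) against Flox control. Tagln stood at -0.48 (SE 0.09) and -0.40 (SE 0.09), and Myl9 at -0.45 (SE 0.10) and -0.52 (SE 0.10), in the same order of controls. No member probe set passed limma's adjusted threshold in either comparison, where 0% and 0.00444% of probe sets passed. At an unadjusted p under 0.05, 6 of 22 were lower and 0 higher against NestinCre control, beside 2.61% and 3.20% of all probe sets. Against Flox control 9 were lower and 1, a dim Tpm1 probe set, was higher, beside 7.65% and 8.29%. Differences below 0 numbered 16 of 22 in each comparison, against 50.4% and 53.3% of all probe sets. Over the 10 brightest probe sets, 8 were below 0 and 5 were lower at that level against NestinCre control, beside 50.9% and 2.89% of genes, with a median of -0.32. Against Flox control 8 were below 0, beside 62.6% of genes, with a median of -0.31.

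**Figure D3:**
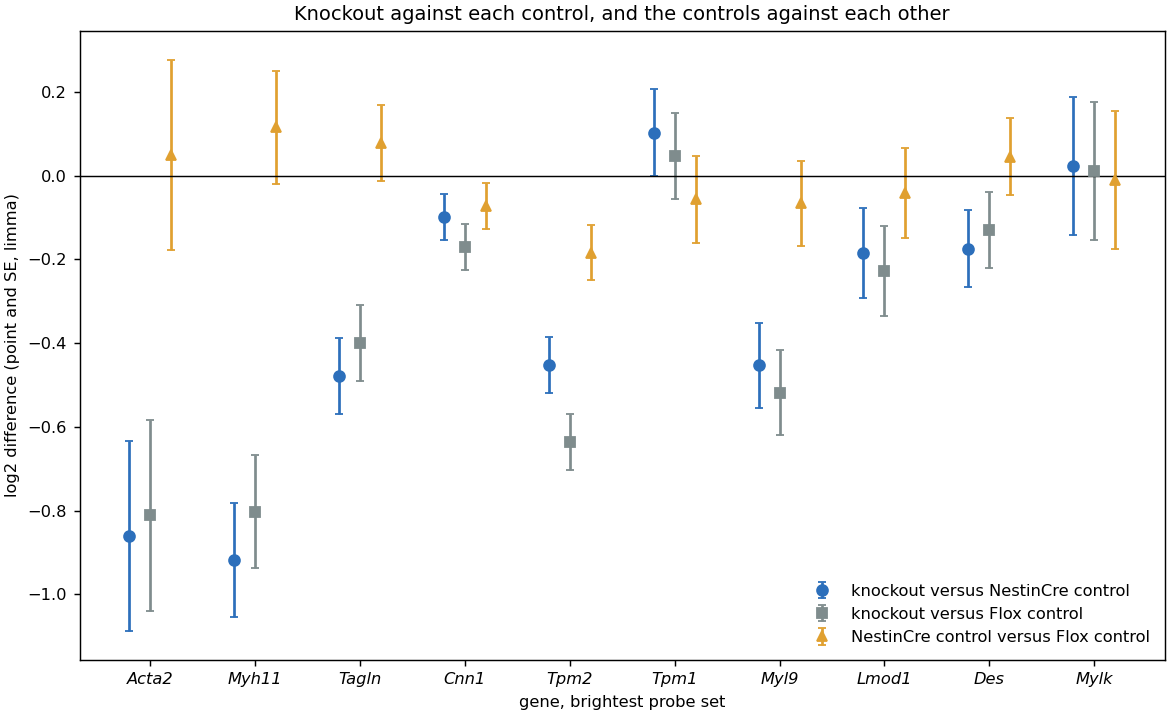
Log2 difference with its limma SE (vertical axis) for the brightest probe set of each gene (horizontal axis), for knockout against NestinCre control (circles), knockout against Flox control (squares) and NestinCre control against Flox control (triangles). Circles and squares lie at -0.40 or below for Acta2, Myh11, Tagln, Tpm2 and Myl9, and triangles lie between -0.18 and 0.12 for all 10 genes.

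The controls differed little from each other in these genes. NestinCre control against Flox control gave a median of -0.03, with 6 of 10 below 0, where 64.2% of genes were below 0 and the median was -0.04. The lowest value was -0.18 for Tpm2 (SE 0.07) and the highest 0.12 for Myh11 (SE 0.14). None of the 22 probe sets passed in limma, as no probe set did (0%), while 3 were lower and 0 higher at an unadjusted p under 0.05, beside 5.22% and 5.20% of all probe sets. Differences below 0 numbered 13 of 22, against 53.6%, and 1 of the 10 brightest probe sets was lower at that level, against 7.07% of genes. All 3 lower probe sets belonged to Tpm2, whose dim probe set measured 6.51 and 6.29 in NestinCre control against 6.84 and 6.89 in Flox control, a difference of -0.47 (SE 0.09, limma adjusted p = 0.378). Its knockout arrays, at 6.32 and 6.44, lay within the range of the NestinCre control arrays, so this probe set separates Flox control from the other groups.

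The counts of the other gene lists are read against the same shares of all genes. Of 36 measured genes for other structural proteins of smooth muscle, 4 were lower and 4 higher at an unadjusted p under 0.05, beside 6.45% lower and 4.16% higher of all genes. None passed limma over all probe sets, and the median was -0.06. The LIM protein Crip1 was lowest at -0.70 (SE 0.08), with 7.99 and 8.21 in knockout, against 8.83 and 8.83 in NestinCre control and 8.75 and 8.81 in Flox control. The calcium-storing calsequestrin Casq2 stood at -0.47 (SE 0.13) and the small heat shock protein Hspb6 at -0.30 (SE 0.09). For Hspb6 the knockout arrays overlapped NestinCre control, with -0.07 (SE 0.11) against NestinCre control and -0.54 (SE 0.11) against Flox control. Higher were Myl6 and the caveolar protein Cav1, which endothelial cells also make, at 0.30 (SE 0.06). The smooth muscle marker smoothelin (Smtn) differed by -0.10 (SE 0.07) and caldesmon (Cald1) by -0.01 (SE 0.06).

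Genes that regulate contraction had a median of -0.03 over 26 measured, with 3 lower and 1 higher at an unadjusted p under 0.05, beside 6.45% and 4.16% of all genes, and none past the adjusted threshold in limma. The lowest were phospholamban (Pln), an inhibitor of the calcium pump, at -0.73 (SE 0.15), and Ppp1r14a, an inhibitor of myosin phosphatase, at -0.52 (SE 0.13). Ppp1r14a differed by -0.32 (SE 0.15) against NestinCre control and -0.73 (SE 0.15) against Flox control, and by -0.41 (SE 0.15) between the controls. For Pln these values were -0.53 (SE 0.17), -0.93 (SE 0.17) and -0.39 (SE 0.17). Pln measured 6.73 and 6.31 in knockout, against 6.97 and 7.13 in NestinCre control and 7.56 and 7.33 in Flox control. The small GTPase gene Rhoa stood at -0.15 (SE 0.05), the endothelin receptor Ednrb at 0.17 (SE 0.06) and the cGMP-dependent kinase Prkg1 at 0.15 (SE 0.06).

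Transcription factors of the contractile program and its regulators, 17 measured, had a median of -0.03. At an unadjusted p under 0.05, 1 was lower and 0 higher, beside 6.45% and 4.16% of all genes. That 1 was the Notch target Heyl, at -0.94 (SE 0.08, limma adjusted p = 0.0890). It measured 6.18 and 6.29 in knockout, against 7.01 and 6.83 in NestinCre control and 7.51 and 7.36 in Flox control. The Heyl difference was -0.69 (SE 0.10) against NestinCre control and -1.20 (SE 0.10) against Flox control, and -0.51 (SE 0.10) between the controls. Hey2 followed at -0.34 (SE 0.15). Myocardin (Myocd), whose probe set was dim, stood at 0.34 (SE 0.17), Tbx18 at 0.13 (SE 0.06), Gata6 at 0.19 (SE 0.11) and serum response factor (Srf) at -0.08 (SE 0.05), and for Hey2 and these 4 the knockout arrays overlapped the controls.

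For the paralogs of the contractile proteins in other cells the median was near 0, while single genes lay further out. Of 29 measured genes 0 were lower and 2 higher at an unadjusted p under 0.05, beside 6.45% and 4.16% of all genes, with a median of -0.02. The 2 were Myl6 and the astrocyte filament gene Gfap, at 0.86 (SE 0.07), which is related to desmin. The non-muscle actins Actb and Actg1 stood at 0.05 (SE 0.07) and -0.05 (SE 0.06), the non-muscle myosin heavy chain Myh9 at 0.11 (SE 0.05), the calponin Cnn3 at -0.14 (SE 0.06) and the tropomyosin Tpm4 at -0.06 (SE 0.07). The kinase Mylk3 measured 6.02 and 5.98 in knockout, against 6.20 and 6.40 in NestinCre control and 6.25 and 7.26 in Flox control, with a difference of -0.53 (SE 0.29) and 1 Flox control array far above the rest.

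Markers of other cells of the vessel wall and of other muscle were read beside these values. Pericyte markers, 14 measured, had a median of -0.42 with 13 below 0 and 8 lower at an unadjusted p under 0.05, beside 59.3% and 6.45% of all genes. Rgs5, a regulator of G protein signalling, fell by 2.16 on the log2 scale (SE 0.08, limma adjusted p = 0.0263). Higd1b stood at -0.96 (SE 0.05) and the receptors Notch3 and Pdgfrb at -1.17 (SE 0.17) and -0.74 (SE 0.12). Both knockout arrays were below all 4 controls for 8 of the 14, against 10.9% of genes. Those that overlapped were Vtn at -0.19, Anpep at -0.20, Kcnj8 at -0.11, Abcc9 at -0.06, Ifitm1 at -0.06 and Cspg4 at 0.04. The summed intensity of the 14 was 4953 to 5002 in knockout, against 7625 to 7662 in NestinCre control and 8072 to 8296 in Flox control. These sums did not overlap between groups, but they are of unlogged values, in which bright genes such as Rgs5 weigh most. Smooth muscle also expresses Notch3, Mcam and Rgs5, and the part of pericyte RNA in the differences of the contractile genes was not tested.

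Endothelial markers, 17 measured, had a median of 0.09. At an unadjusted p under 0.05, 0 were lower and 0 higher, beside 6.45% and 4.16% of all genes. Their summed intensity was 12270.5 to 12949 in knockout, against 11420 to 11753 in NestinCre control and 11796 to 11887 in Flox control. The endothelial receptor Eng stood at 0.34 (SE 0.14) and the glucose transporter Slc2a1 at 0.13 (SE 0.06). Meningeal fibroblast markers, 13 measured, had a median of 0.05, with Lum at -0.30 (SE 0.05), Aldh1a2 at -0.35 (SE 0.07) and Dcn at 0.44 (SE 0.11), and summed to 21285 to 21538 in knockout, against 20726 to 20850 in NestinCre control and 19897 to 21344 in Flox control. Aldh1a2 overlapped between knockout and NestinCre control, with -0.07 (SE 0.08) against NestinCre control and -0.63 (SE 0.08) against Flox control. Arterial wall matrix genes, 14 measured, had a median of 0.04, with Mfap4 at -0.26 (SE 0.06) and the collagen Col4a2 at 0.22 (SE 0.06).

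Choroid plexus markers, 11 measured, were all below 0, with a median of -0.34, and 6 were lower at an unadjusted p under 0.05, beside 59.3% and 6.45% of all genes. Among them were the potassium channel subunit Kcne2 at -0.47 (SE 0.11) and Kl at -0.40 (SE 0.09). Their summed intensity was 13899 to 14204 in knockout, against 14635 to 15883 in NestinCre control and 15054 to 15185 in Flox control. The amount of choroid plexus tissue in each sample is not in the labels, and its part in the contractile gene values was not tested. Skeletal muscle markers, 14 measured, had a median of 0.0046 with 2 above the median probe set, the calcium-binding Pvalb, which interneurons also make, at 12.38 and Acta1 at 7.88. Cardiac muscle markers, 11 measured, had a median of -0.02, with Actc1 and Myh6 dim at mean levels of 5.49 and 5.52. The atrial light chain Myl4 stood at -0.32 (SE 0.10), with -0.13 (SE 0.11) against NestinCre control and -0.51 (SE 0.11) against Flox control.

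Markers of glia differed too. All 9 measured microglial markers were above 0, where 59.3% of all genes were below 0. Their median was 0.13, and 4 were higher at an unadjusted p under 0.05, beside 4.16% of all genes. Aif1, a calcium-binding protein of microglia, stood at 0.70 (SE 0.06). Of the 8 astrocyte markers 7 were below 0, with 3 lower and 1 higher at that level, beside 59.3%, 6.45% and 4.16% of all genes. Their median was -0.12, and the astrocyte gene Gfap, counted with the paralogs and not among these 8, stood at 0.86 (SE 0.07). The astrocyte markers summed to 38880 to 39320 in knockout, against 41291 to 41994 in NestinCre control and 41065 to 41217 in Flox control, so the groups did not overlap. The part of glial RNA in the contractile gene values was not tested.

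**Figure D4:**
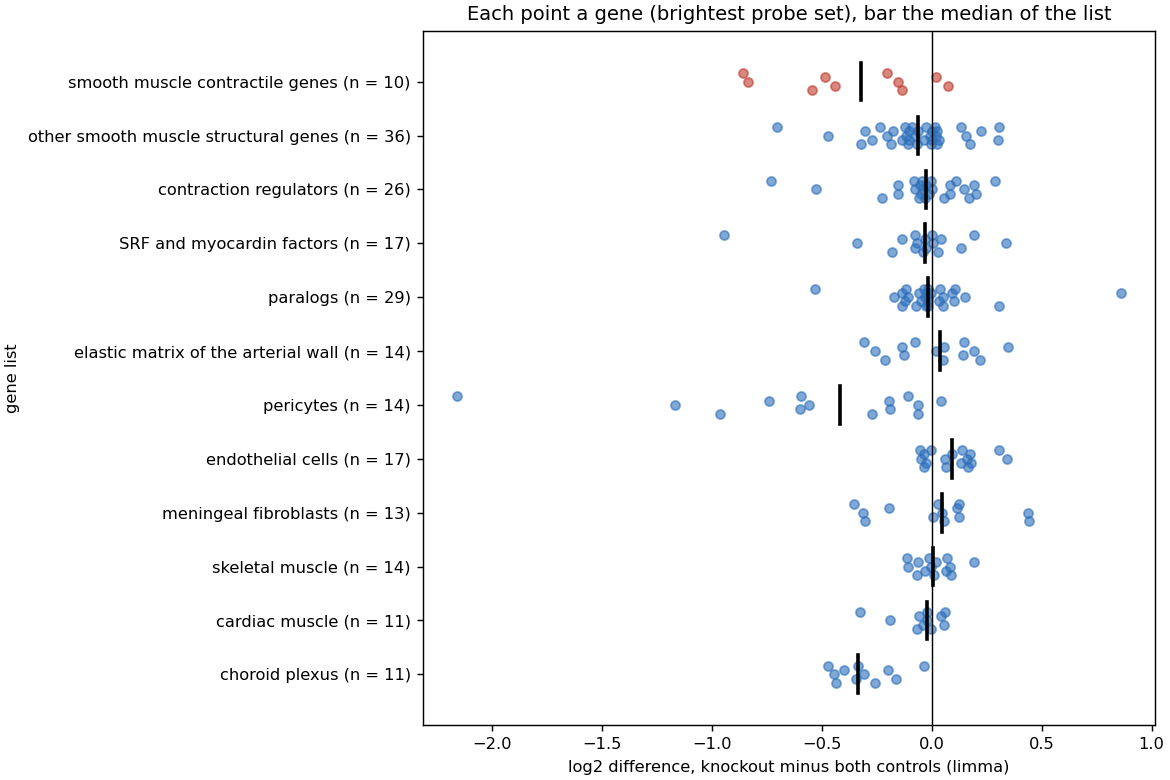
Log2 difference between knockout and both controls (horizontal axis) for each gene of 12 lists (vertical axis), each point a gene by its brightest probe set and each bar the list's median. The bars of the contractile genes, pericytes and choroid plexus lie at -0.32, -0.42 and -0.34, and those of the other 9 lists drawn between -0.06 and 0.09.

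The genes with the most alike pattern over the 6 arrays were found by the root mean square distance between a gene's centred log2 profile and the mean centred profile of the 6 brighter contractile genes, over 11469 genes brighter than the median probe set. That mean profile was -0.17 and -0.32 on knockout replicates 1 and 2, against 0.11 and 0.10 in NestinCre control and 0.12 and 0.16 in Flox control. The nearest were Enpp4 at a distance of 0.032, the cytokine gene Il18 at 0.037, the lysosomal galactosidase Gla at 0.039, the matrix protein Efemp1 at 0.041, Gfer at 0.042 and Gm527 at 0.048. Il18 measured 10.57 and 10.46 in knockout, against 10.82 and 10.87 in NestinCre control and 10.81 and 10.94 in Flox control. None of these 6 is on a list used here, and they were chosen for this pattern, so their values carry no test.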

How the data were processed

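Brain RNA was amplified, labelled with biotin and hybridised to 6 one-colour arrays, per the labels' protocols. Each array has 1 deposited intensity per probe set, not logged. Per the submitters' processing notes the tools were GCOS and RMA, with neither version nor role stated. RMA's quantile step makes array distributions alike, so a shift common to most genes would not be seen, and RMA values of dim probe sets are flattened. Log2 of each deposited intensity was taken, and the 64 control probe sets were left out. Of 45037 probe sets, 34945 had 1 gene symbol, 932 several and 9160 none listed, and only the first were named. Differences were fitted with limma 3.58.1 in R 4.3.3 (1 mean per group, eBayes without trend, 6 arrays, 3 residual degrees of freedom), with Benjamini-Hochberg adjustment over all 45037 probe sets, and the step was tested on simulated data. An SE is that of the limma difference. Knockout against both controls means against the average of the 2 control means. Nothing in the labels ties replicates to separate animals, and p-values therefore reflect only the spread among these arrays, technical spread included. Precision is limited by 2 arrays a group.

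The members, lists and alternatives were chosen with earlier results of these data known. All 10 members are named; other lists are given by counts and medians, and by name for up to 5 genes with the smallest unadjusted p in knockout against both controls. Smtn, Cald1, Srf, Actb, Actg1, Tpm4, Acta1, Actg2, Actc1, Myl12a, Myl12b, Pvalb, Pofut1, Gh, Xist and Eif2s3y were named outside that rule, as relatives or checks. Mylk3, Mcam, Vtn, Anpep, Kcnj8, Abcc9, Ifitm1 and Cspg4 were named after their values were seen. Same-numbered arrays deviated from their group means with correlations of 0.19 for the 2 controls, -0.31 for knockout and NestinCre control and -0.24 for knockout and Flox control, so the numbers were not taken as pairs. The alternatives were repeated quantile normalization, median centring, brighter probe sets only, 1 probe set per gene, an offset of 16, control probe sets kept, an intensity trend with and without robust fitting, a replicate block, an Xist covariate, the compared groups alone and each array left out.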

Additional observations from a re-analysis of the deposited data

How the results depend on the processing

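The direction of the member values held across most settings, while the number of probe sets called over the whole array did not hold. The size of the member values depended on the arrays for some genes. With 1 array left out, Acta2 ran from -1.17 to -0.50 against both controls and Lmod1 from -0.28 to -0.13. Tpm2 ran only from -0.58 to -0.51. Of 45037 probe sets, 7 passed in knockout against both controls, 0 against NestinCre control, 2 against Flox control and 0 between the controls. In the same order the counts were 22, 9, 9 and 0 with arrays centred on their medians, 34, 11, 23 and 0 with brighter probe sets only, 34, 10, 20 and 0 with 1 probe set per gene, 135, 39, 162 and 1 with an intensity trend, and 202, 72, 325 and 6 with trend and robust fitting. With the Xist level as a covariate they were all 0. With the replicate block they were all 0, as they were with the crossed pairing of knockout numbers, which was added after seeing the data. Repeated quantile normalization and log2 of the value plus 16 each gave 0 against Flox control. Fitting the compared groups alone gave 1 against NestinCre control and 0 against Flox control. Leaving out 1 array gave 0 to 1 against both controls, 0 to 1 against NestinCre control, 0 against Flox control and 0 to 2 between the controls. The cause of these shifts was not tested.

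Member probe sets called were 0 in all 4 comparisons, and 1, the brighter Myh11 probe set, passed with trend and robust fitting against both controls. The median of the members, -0.32 against both controls, was -0.26 with the mean over all probe sets of each member and -0.46 with brighter members only. Against NestinCre control these were -0.24 and -0.45, and against Flox control -0.46 with brighter members only. Leaving out 1 array moved the median between -0.37 and -0.27 against both controls, -0.39 and -0.22 against NestinCre control, and -0.36 and -0.24 against Flox control. Between the controls the median of -0.03 became 0.0067 with the mean over all probe sets, and ran from -0.040 to 0.034 when arrays were left out.

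Signs turned only for members with values near 0. Against both controls Mylk was -0.0095 with the Xist covariate and ran from -0.10 to 0.13 when 1 array was left out. Against NestinCre control Mylk ran from -0.042 to 0.087. Against Flox control Mylk was -0.012 with centred arrays and -0.037 with the Xist covariate, and Tpm1 was -0.010 with that covariate; leaving out 1 array gave -0.22 to 0.25 for Mylk and -0.065 to 0.16 for Tpm1. Between the controls Mylk was 0.019 with repeated quantile normalization, and with the Xist covariate Acta2 was -0.082 and Myl9 0.0071. Leaving out 1 array between the controls gave -0.042 to 0.14 for Acta2, -0.012 to 0.24 for Myh11, -0.17 to 0.056 for Tpm1, -0.14 to 0.0040 for Myl9, -0.17 to 0.083 for Lmod1, -0.069 to 0.16 for Des and -0.25 to 0.22 for Mylk. Without signal calls, what brightness limits in the dim probe sets is not known.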
